A study of Mus musculus with 3 samples.

Results

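The 9 genes described here are Cux1, Cux2, Rorb, Fezf2, Bcl11b, Tbr1, Tle4, Sox5 and Foxp2, which encode transcription factors and 1 corepressor that set the projection identity of cortical excitatory neurons. They were chosen by name, and all 9 were found among the 32531 gene symbols of the deposited count tables. The study profiled prefrontal cortex of untreated adult mice of the transgenic line Slc17a6-TRAP JX883, which makes an EGFP-tagged ribosomal protein Rpl10a under control of the vesicular glutamate transporter gene Slc17a6. In translating ribosome affinity purification (TRAP), polysomes that carry the tagged protein are pulled down with anti-EGFP antibodies and their RNA is sequenced. All 3 libraries are immunopurified RNA, each pooled from 3 mice, and they form 1 group without genotype or treatment contrast. No input RNA was analysed here, so a level is an abundance in the purified RNA and not an enrichment over the tissue. Fewer cells of a type and less RNA per cell cannot be told apart in such pooled RNA.

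Excitatory neurons of the cortex send axons to targets that depend on their layer. Callosal neurons of the upper layers project to the other hemisphere, layer 5 neurons project to brainstem and spinal cord, and layer 6 neurons project to thalamus. These fates are set by transcription factors that repress one another during development: Fezf2 directs subcerebral fate and acts upstream of Bcl11b, and Tbr1 represses Fezf2 in layer 6. Many of these factors stay expressed in the adult cortex, and several are also expressed outside it, such as Bcl11b and Foxp2 in striatal projection neurons and Tbr1 in output neurons of the olfactory bulb.

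The sequence around an annotated start site is shown for Fezf2 and Tbr1, the 2 members with the highest level per transcript length, and for the paralogs Cux1 and Cux2, which are compared with each other in what follows. Each run covers 300 bases, from 250 before to 50 after a RefSeq start on GRCm38.p6 (the assembly of mm10), and is given 5′ to 3′ on the strand of the gene. The windows are chr14:12345816-12346115 on the minus strand for Fezf2, chr2:61804203-61804502 on the plus strand for Tbr1, chr5:136565932-136566231 on the minus strand for Cux1 and chr5:122049802-122050101 on the minus strand for Cux2. Capitals mark matches, on either strand, to any of 9 short motifs known from earlier work. AGGTCA is bound by ROR receptors, TGTTTAC by forkhead factors, AACAAT by Sox factors, ATCGAT by Cux factors, AGGTGT by T-box factors, TAATTA by homeodomain factors, GGGCGG by Sp factors, CCAAT by the factor NF-Y and TATAAA by the TATA-binding protein.
Fezf2: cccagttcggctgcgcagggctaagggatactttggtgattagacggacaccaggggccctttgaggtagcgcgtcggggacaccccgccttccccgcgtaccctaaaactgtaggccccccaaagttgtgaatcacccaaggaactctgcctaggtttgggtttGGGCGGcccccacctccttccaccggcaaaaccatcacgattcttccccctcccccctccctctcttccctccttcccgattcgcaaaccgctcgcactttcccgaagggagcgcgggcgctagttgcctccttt
Tbr1: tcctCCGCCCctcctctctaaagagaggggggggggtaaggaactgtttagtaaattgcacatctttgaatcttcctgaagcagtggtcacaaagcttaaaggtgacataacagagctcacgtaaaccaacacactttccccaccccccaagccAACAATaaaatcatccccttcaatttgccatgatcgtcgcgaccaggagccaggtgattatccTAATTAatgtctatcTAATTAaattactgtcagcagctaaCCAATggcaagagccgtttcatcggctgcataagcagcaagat
Cux1: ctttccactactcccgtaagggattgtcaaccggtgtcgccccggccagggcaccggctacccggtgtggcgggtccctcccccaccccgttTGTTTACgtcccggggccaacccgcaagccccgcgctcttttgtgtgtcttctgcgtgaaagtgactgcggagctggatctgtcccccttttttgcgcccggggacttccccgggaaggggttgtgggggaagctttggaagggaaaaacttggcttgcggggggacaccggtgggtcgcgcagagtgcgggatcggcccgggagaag
Cux2: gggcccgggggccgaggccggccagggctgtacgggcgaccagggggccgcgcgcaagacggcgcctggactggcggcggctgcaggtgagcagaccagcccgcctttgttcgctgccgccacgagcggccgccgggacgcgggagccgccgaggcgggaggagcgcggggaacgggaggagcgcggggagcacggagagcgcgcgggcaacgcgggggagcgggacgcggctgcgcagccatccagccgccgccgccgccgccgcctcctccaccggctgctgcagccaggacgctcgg

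The Tbr1 window held TAATTA at 2 places, beginning 33 and 18 bases before the start, and 5.30% of all 32817 windows of this length hold those letters. It also held AACAAT 96 bases before the start (10.7% of all windows), GGGCGG 246 bases before it (35.6%) and CCAAT after it (37.4%). The Fezf2 window held GGGCGG 85 bases before the start and none of the other motifs. The Cux1 window held TGTTTAC 158 bases before the start, letters present in 3.65% of all windows. The Cux2 window shown held none of the 9 motifs, while a second annotated Cux2 window at chr5:122047776-122048075 held ATCGAT 72 bases before its start (0.926% of all windows). A TATAAA match began 67 bases before that start and overlapped the end of ATCGAT, and no other matches overlapped. GC content was 61.3% for Fezf2, 46% for Tbr1, 65% for Cux1 and 80.3% for Cux2, beside a median of 52.7% over all windows. RefSeq windows were matched for 8 of the 9 members, with 11 windows in all, and a match describes letters only.

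Library totals over named genes ranged from 8964137 to 12648577 counts, and 27.8% ± 0.56 (SD, n = 3) of the deposited counts fell on lines without a gene. Slc17a6, the driver gene, stood at 857, 723 and 913 CPM (counts scaled to a common total of named-gene counts) in replicates 1, 2 and 3, and the cortical transporter gene Slc17a7 at 303, 326 and 292 CPM. All 7 cortical excitatory markers, which include the driver gene Slc17a6 itself, reached 1 CPM in every library, as did 37.9% of all symbols. Markers of other cells were also present: of the listed genes, 14 of 14 striatal, 5 of 7 thalamic, 4 of 6 olfactory bulb output, 12 of 13 GABAergic, 5 of 5 Cajal-Retzius, 10 of 10 astrocyte, 6 of 6 oligodendrocyte precursor, 7 of 8 oligodendrocyte, 6 of 8 microglial and 2 of 6 endothelial genes reached 1 CPM in every library. The thalamic gene Gbx2 and the microglial gene C1qa had 0 counts, which allows up to 0.335 CPM in the shallowest library.

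All 9 members exceeded 1 CPM in every library, a level reached by 37.9% of all symbols. Their mean levels ran from 36.4 CPM for Cux2 to 182 CPM for Tle4, with a median of 102 CPM, beside a median of 24.0 CPM over the 12321 genes that did so. Together the members summed to 1023, 988 and 1016 CPM in replicates 1, 2 and 3, or 1009 ± 18.6 CPM (SD, n = 3). The sum was thus nearly level across libraries, while single members ranged more widely. The counts behind these values ran from 324 (Cux2, replicate 1) to 2477 (Tbr1, replicate 1), and each member's spread between libraries was 2.17 to 6.71 times its counting error.

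**Figure D1:**
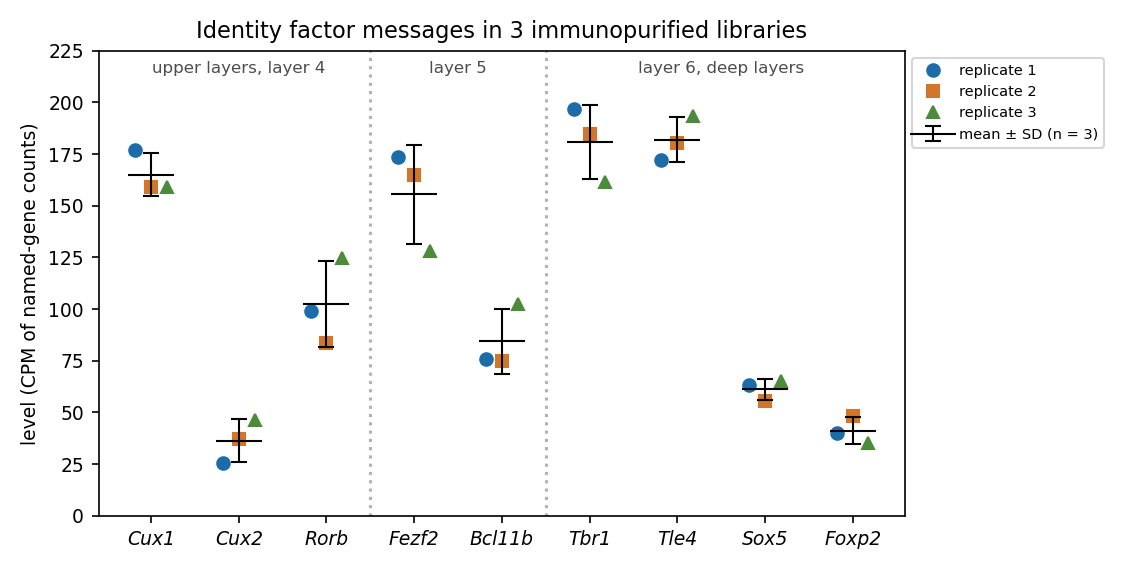
Level of each member in CPM (linear axis from 0) in replicates 1, 2 and 3, with the mean and SD (n = 3) in black and dotted lines between layer groups. Tle4, Tbr1, Cux1 and Fezf2 average above 150 CPM, while Cux2 and Foxp2 stay below 50 CPM in every library.

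Fezf2 and Bcl11b stand for layer 5 and subcerebral output. Fezf2, a zinc finger gene that directs corticospinal fate (ENSMUSG00000021743.6, mm10 chromosome 14, 12342094 to 12348189, minus strand), had 2186, 1477 and 1621 counts, or 174, 165 and 128 CPM in replicates 1, 2 and 3. Replicate 3 was the low library, and the mean was 156 ± 24.1 CPM (SD, n = 3). Bcl11b, a zinc finger gene also called Ctip2 that supports the outgrowth of corticospinal axons (chromosome 12, 107910403 to 108003602, minus strand), had 75.9, 74.9 and 102 CPM, with a mean of 84.4 ± 15.6 CPM. Its high library was replicate 3, the library in which Fezf2 was lowest. Neither gene shared exonic bases with another annotated gene.

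Layer 6 and deep-layer factors included the members with the highest CPM. Tbr1, a T-box gene of layer 6 corticothalamic neurons (chromosome 2, 61802930 to 61814114, plus strand), had 197, 185 and 161 CPM, a mean of 181 ± 17.9 CPM (SD, n = 3), and like Fezf2 was lowest in replicate 3. Tle4, a Groucho-family corepressor of corticothalamic neurons (chromosome 19, 14448150 to 14598051, minus strand), had 172, 180.5 and 193 CPM. It had the smallest relative spread of the members, 5.89% of its mean of 182 CPM. Sox5, an HMG box gene that restrains subcerebral fate in the earliest deep-layer neurons (chromosome 6, 143828425 to 144781977, minus strand), had 63.3, 55.4 and 65.0 CPM. Of its exonic bases, 9.25% overlap the antisense gene Sox5os1, whose reads may not have been told apart. Foxp2, a forkhead gene of layer 6 (chromosome 6, 14901349 to 15441977, plus strand), had 39.8, 48.2 and 35.2 CPM and was the only member highest in replicate 2.

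Upper-layer factors spanned a similar range, with the highest and lowest of them being paralogs. Cux1, a cut-homeodomain gene of layers 2 to 4 (chromosome 5, 136248135 to 136567490, minus strand), had 177, 159 and 159 CPM, a mean of 165 ± 10.5 CPM (SD, n = 3). The Cux1 gene also encodes the Golgi protein CASP by alternative splicing, and the counts per gene do not separate the 2 products. Its paralog Cux2, which promotes dendrite branching in upper-layer neurons (chromosome 5, 121856366 to 122050102, minus strand), had 25.7, 36.9 and 46.4 CPM, and replicate 1 was the low library. Rorb, a nuclear receptor gene that marks layer 4 (chromosome 19, 18930605 to 19111196, minus strand), had 99.0, 83.7 and 125 CPM and was highest in replicate 3.

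The question of whether any member varied between the pooled libraries was addressed with a goodness of fit test over all genes, which sets a gene's variation against that of genes of like abundance. None of the 9 members varied at an adjusted p of 0.05 in edgeR (0 of 9, against 0.244% of the 14774 genes tested), and 0 of 9 had an unadjusted p under 0.05, against 7.22% of genes. The limma variance test also called 0 of 9 members at an adjusted p of 0.05, against 0.0812% of genes, with 0 of 9 at an unadjusted p under 0.05 against 4.85% of genes. Cux2 had the smallest value, with an unadjusted p of 0.0639 (edgeR adjusted p = 0.756) and levels that differed 1.80-fold between replicates 1 and 3. Rorb followed at an unadjusted p of 0.0933 (edgeR adjusted p = 0.816), with a 1.49-fold difference between replicates 2 and 3. Bcl11b and Fezf2 differed by at most 1.37-fold and 1.35-fold (edgeR unadjusted p = 0.162 and 0.183). For Foxp2, Tbr1, Sox5, Tle4 and Cux1 the unadjusted edgeR p was 0.421, 0.503, 0.740, 0.750 and 0.790. With 3 libraries, a count of 0 does not show that the members did not vary.

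The range of log2(CPM + 0.5) over the libraries had a median of 0.44 over the members, from 0.16 for Cux1 to 0.84 for Cux2. Over all genes tested the median range was 0.51, and over the 3759 tested genes whose mean CPM lay within the span of the members it was 0.29. Replicate 3 was highest for 5 members (Bcl11b, Cux2, Rorb, Tle4 and Sox5) and lowest for 3 (Fezf2, Tbr1 and Foxp2). Fezf2 lay 0.27 below its mean log2 CPM in replicate 3, and Tbr1 0.16 below, while Bcl11b lay 0.29 above, Rorb 0.30 above and Cux2 0.39 above. Members of the same layer group therefore did not all deviate in the same direction in replicate 3. As values beside these, the summed level of the 6 olfactory bulb output genes was 168, 120 and 35.7 CPM in replicates 1, 2 and 3, led by Cdhr1 at 116, 95.9 and 17.3 CPM, with Ppm1j at 0.0794 ± 0.138 CPM. The 14 striatal genes summed to 636, 822 and 893 CPM, led by Penk at 201 ± 51.7 CPM and lowest for Gpr6 at 3.09 ± 1.74 CPM. Thalamic genes summed to 266, 283 and 294 CPM and GABAergic genes to 996, 997 and 1053 CPM. Cajal-Retzius genes summed to 358, 320 and 278 CPM. Like the olfactory bulb sum, this sum was highest in replicate 1 and lowest in replicate 3, as Fezf2 and Tbr1 were. The sums of the upper-layer, layer 5 and excitatory lineage regulators listed below had that order too, though single genes on them, such as Sox11, did not. The deep-layer regulators (378, 293 and 304 CPM) and the corticothalamic effectors (430, 438 and 382 CPM) did not have it. Nor did the callosal and subcerebral effectors. Astrocyte genes summed to 1427, 1588 and 1649 CPM and oligodendrocyte genes to 456, 619 and 630 CPM. Oligodendrocyte precursor genes summed to 77.4, 96.5 and 107 CPM. These sums had the same order of libraries as Cux2, and so did the striatal, thalamic, GABAergic, microglial and cortical excitatory sums. The cortical excitatory genes summed to 5042, 5163 and 5469 CPM. Not all genes of these lists had that order: Gad1 had 84.6, 83.2 and 72.4 CPM, and Ntng1 112, 95.9 and 90.4 CPM. Microglial genes summed to 33.1, 35.4 and 41.7 CPM and endothelial genes to 9.29, 11.3 and 11.2 CPM. The part of these cells in the levels of the members was not tested.

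**Figure D2:**
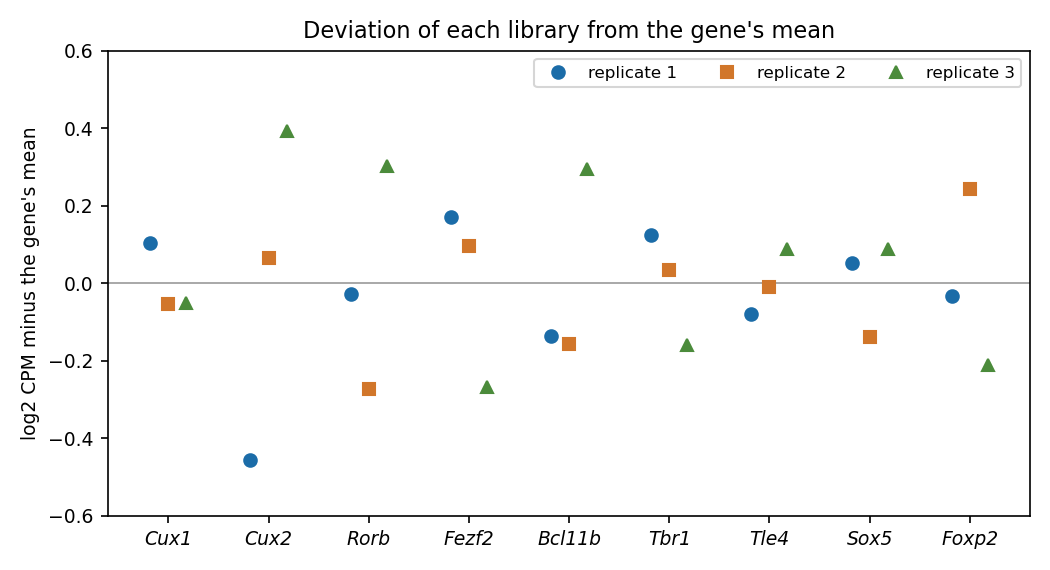
Deviation of log2 CPM from the gene's own mean over the 3 libraries, for each member and replicate (0 is the mean). In replicate 3 Cux2, Rorb and Bcl11b lie above their means by 0.29 to 0.39, while Fezf2, Foxp2 and Tbr1 lie below theirs by 0.16 to 0.27.

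Cux2 was the member with the widest range, and genes averaging at least 20 CPM were ranked by how close their centred log2(CPM + 0.5) profile over the 3 libraries lay to its own. Of 6760 genes compared, the nearest was the peptide gene Sst (126, 182 and 227 CPM in replicates 1, 2 and 3, at a Euclidean distance of 0.01). The potassium channel gene Kcnh2 (20.4, 28.6 and 37.2 CPM, distance 0.04) and Lppr5 (24.3, 33.8 and 41.1 CPM, distance 0.07) came next. All 3 were lowest in replicate 1, as Cux2 was. With only 3 libraries a close profile describes these libraries alone.

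Levels of different genes were compared per length, as TPM, which divides counts by merged exon length and scales each library to a common total. On this scale Fezf2, whose transcripts are short, was highest at 278, 265 and 206 TPM in replicates 1, 2 and 3, or 250 ± 38.3 TPM (SD, n = 3). Tbr1 followed at 161 ± 15.7 TPM and Tle4 at 156 ± 9.49 TPM. Bcl11b (50.9 ± 9.45 TPM), Rorb (45.2 ± 9.12 TPM) and Cux1 (40.3 ± 2.44 TPM) formed a middle group. Sox5 (20.8 ± 1.70 TPM), Cux2 (17.6 ± 5.05 TPM) and Foxp2 (12.3 ± 1.99 TPM) were lowest.

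Neighbours in this order were compared within each library as log2 ratios of TPM + 0.5. Fezf2 exceeded Tbr1 by 0.62 ± 0.09 (SD, n = 3), or 1.54-fold, and Tle4 exceeded Bcl11b by 1.62 ± 0.18, or 3.08-fold. Cux1 exceeded Sox5 by 0.94 ± 0.12, or 1.91-fold. These 3 steps were larger than their spread and had 1 direction in 3 of 3 libraries, although in CPM the first turned to -0.23, with Fezf2 below Tbr1 in every library. The step from Bcl11b to Rorb, 0.17 ± 0.11, was also larger than its spread but turned to -0.08 when the longest transcript gave the length. The differences of Tbr1 over Tle4 (0.04 ± 0.23), Rorb over Cux1 (0.15 ± 0.30), Sox5 over Cux2 (0.27 ± 0.43, or 1.04 with the longest transcript) and Cux2 over Foxp2 (0.48 ± 0.52) were within their spread. An exact permutation test that flips signs (two-sided) gave p = 0.25 for the steps in 1 direction in every library and 0.5 to 0.75 for the others (adjusted p = 0.4 to 0.75 over 8 pairs). With 3 libraries this test cannot give a p below 0.25 and so cannot reach 0.05.

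**Figure D3:**
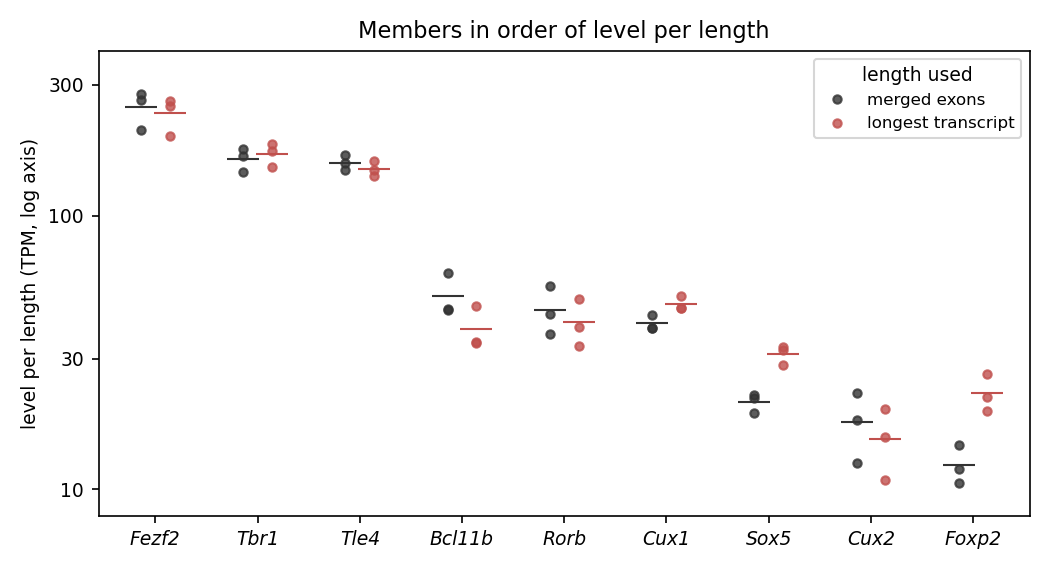
Level per length (TPM, log axis) in each library as points and the mean as a dash, with length taken from merged exons (black) or from the longest annotated transcript (red). Fezf2, Tbr1 and Tle4 lead under both lengths, and Foxp2 lies below Cux2 with merged exons and above it with the longest transcript.

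Levels per length depended on which length was used. Merged exons of Foxp2 cover 16346 bases in 20 transcripts, while its longest transcript has 6760 bases, and its mean level was 12.3 TPM with the former and 22.4 TPM with the latter. For Sox5 (14 transcripts) the values were 20.8 and 31.2 TPM, and for Cux1 (also 14 transcripts) 40.3 and 47.4 TPM. Bcl11b, whose merged exons and longest transcript both have 8111 bases, went from 50.9 to 38.4 TPM because TPM is relative to all genes. The order Fezf2, Tbr1, Tle4 was the same with both lengths, while Cux1 took the place after Tle4 with the longest transcript.

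Grouped by layer, the summed TPM of Fezf2 and Bcl11b made up 41.6%, 40.9% and 36.8% of the summed TPM of the members in replicates 1, 2 and 3. Tbr1, Tle4, Sox5 and Foxp2 held 45.7%, 46.7% and 47.2%, and Cux1, Cux2 and Rorb held 12.7%, 12.4% and 16.0%. Per length, the upper-layer share was thus the smallest in each library and highest in replicate 3. In CPM, which leaves length out, the layer 5 sum was the smallest instead, at 250, 240 and 231 CPM against 302, 279 and 330 CPM for the upper-layer genes and 472, 469 and 455 CPM for the deep-layer genes. With the longest transcript the upper-layer share was 13.0%, 12.6% and 16.0%. As a mean of log2(TPM + 0.5) over genes, the upper-layer group lay 1.82 ± 0.18 below the layer 5 group and 0.68 ± 0.22 below the deep-layer group (SD, n = 3), each in 3 of 3 libraries. The layer 5 group lay 1.14 ± 0.06 above the deep-layer group as a mean of logs and 0.23 below it as a sum, which adds 4 deep-layer genes against 2 of layer 5.

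Each member was also set against a paralog, and 2 further pairs followed known regulatory relations, giving 10 contrasts within a library. Cux1 exceeded Cux2 by 1.75, 1.09 and 0.77 log2 units per length in replicates 1, 2 and 3, or 2.31-fold on average, and by 2.21 log2 units in CPM. Fezf2 stood at 8.27 times the level of Fezf1, a paralog of olfactory and hypothalamic development (31.0 ± 11.5 TPM). Tbr1 exceeded Eomes, a T-box gene of intermediate progenitors and olfactory bulb output neurons, by 3.81 ± 0.94 log2 units (SD, n = 3), the widest spread of the 10. The log2 ratio was 2.73, 4.21 and 4.48 in replicates 1, 2 and 3, and Eomes had 22.1, 7.14 and 5.06 CPM. Tbx21, another T-box gene of those bulb neurons, had 2.70, 1.45 and 0 CPM.

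Tle4 exceeded Tle1, another Groucho-family gene, by 3.47 ± 0.33 (SD, n = 3), or 11.1-fold (2.88 log2 units in CPM and 2.82 with the longest transcript). Tle3 (9.85 ± 1.01 TPM), Tle2 (2.84 ± 1.87 TPM) and Tle6 (1.26 ± 0.461 TPM) were also lower than Tle4 (156 TPM). Sox5 exceeded Sox6, another SoxD gene, by 1.13 ± 0.35, or 2.18-fold, and Sox13 stood at 1.77 ± 0.114 TPM. Foxp2 was the member below its paralog by the largest margin, at -2.63 ± 0.17 against Foxp1, a forkhead gene of layers 3 to 6 and striatum. Foxp1 had 206, 235 and 218 CPM, while Foxp4 averaged 33.6 ± 4.80 CPM and Foxp3, a gene of regulatory T cells, 0.0264 ± 0.0456 CPM. Rorb lay 0.40 ± 0.35 below Rora, with -0.61, -0.60 and 0.01 in replicates 1, 2 and 3.

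Bcl11b and its paralog Bcl11a could not be ranked. The log2 ratio was -0.16, -0.10 and 0.60 with merged exons, a mean of 0.11 ± 0.42 (SD, n = 3), and -1.01 ± 0.42 with the longest transcript. Bcl11a, which is on in both upper and deep layers, had 138, 130 and 109 CPM. Leaving out replicate 3 turned the ratio to -0.13.

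Among the regulatory pairs, Fezf2 exceeded its downstream gene Bcl11b by 2.59, 2.54 and 1.73 log2 units in replicates 1, 2 and 3, or 4.88-fold on average, and by 0.88 log2 units in CPM. Fezf2 exceeded its layer 6 repressor Tbr1 by 0.67, 0.68 and 0.51 per length, the tightest contrast of the 10, but lay below it in CPM, at a log2 ratio of -0.23. With merged exons, 8 of the 10 contrasts pointed 1 way in every library (p = 0.25 by the exact permutation test, 0.312 after adjustment). The exceptions were Rorb against Rora (exact permutation p = 0.5) and Bcl11b against Bcl11a (p = 1). With the longest transcript and in CPM, Rora and Bcl11a were the higher genes in every library (exact permutation p = 0.25).

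**Figure D4:**
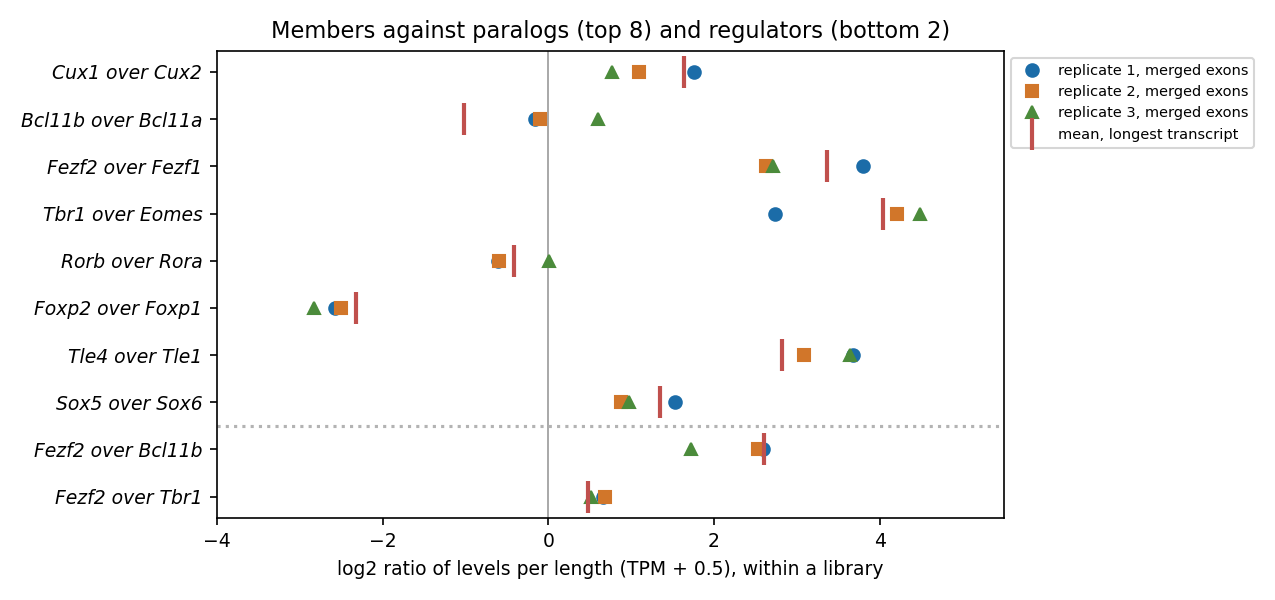
Log2 ratio of levels per length within each library for 8 paralog pairs and 2 regulatory pairs, with replicates as symbols (merged exons) and the mean with the longest transcript as a red bar. Tbr1 over Eomes spans 2.73 to 4.48, and Bcl11b over Bcl11a lies on both sides of 0.

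Other regulators of projection identity were detected with the members. Of the 15 listed paralogs, 11 reached 1 CPM in every library, beside 37.9% of all symbols. Of upper-layer and callosal regulators 9 of 9 reached 1 CPM in every library, from the MADS box gene Mef2c at 667 ± 62.1 CPM to Bhlhe22 at 9.54 ± 1.70 CPM. Layer 5 and areal regulators did so in 9 of 9 cases, from Zeb2 at 268 ± 63.4 CPM to Sox4 at 5.08 ± 1.52 CPM, and deep-layer regulators in 5 of 5, from Nfib at 104 ± 27.8 CPM to Zfpm2, a GATA cofactor of corticothalamic neurons, at 21.9 ± 0.291 CPM. Excitatory lineage regulators did so in 6 of 7, from Neurod6 at 96.8 ± 17.8 CPM to the progenitor gene Neurog2 at 0.538 ± 0.767 CPM. None of the genes tested on these 4 lists (9, 9, 5 and 7) or among the paralogs (13 of 15 tested) was called by the edgeR goodness of fit, against 0.244% of all genes. At an unadjusted p under 0.05 there were 0, 2, 1 and 0 on the 4 lists in that order and 2 among the paralogs (Eomes and Tbx21), against 7.22% of all genes. The median range of log2(CPM + 0.5) was 0.27, 0.62, 0.45, 0.40 and 0.61, beside 0.51 over all genes tested.

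Effector genes of the 3 projection classes were present as well, beside 37.9% of all symbols at 1 CPM in every library. Calls among them are read against 0.244% of all genes (edgeR, adjusted p of 0.05) and 7.22% at an unadjusted p under 0.05. Corticothalamic effectors reached 1 CPM in every library in 8 of 8 cases, from the guidance gene Sema5a at 117 ± 6.42 CPM to the neurotensin receptor gene Ntsr1 at 10.3 ± 3.61 CPM, and 0 of 8 were called (0 at an unadjusted p under 0.05). Subcerebral effectors did so in 7 of 8 cases, led by the repressor gene Bcl6 at 77.5 ± 12.6 CPM, and 0 of 7 tested were called (0 at an unadjusted p under 0.05). The exception was Pcp4, a calmodulin-binding peptide gene used as a marker of layer 5, with 6, 4 and 2 counts. Callosal effectors did so in 9 of 9 cases, from Dkk3 at 552 ± 10.6 CPM to the lipase gene Lpl at 5.27 ± 1.52 CPM. Limch1 was the 1 callosal gene of 9 called, with 2 of 9 at an unadjusted p under 0.05, at 28.6, 157 and 50.4 CPM in replicates 1, 2 and 3 (edgeR adjusted p = 1.12e-14), and it lost the call without replicate 2 (edgeR adjusted p = 0.556).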

How the data were processed

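Ribosome-bound RNA of 3 libraries was measured by RNA-seq. For each library the authors deposited raw counts under gene symbols. The submitters' processing notes name STAR 2.0.0e, HTSeq and mm10. Their settings, gene annotation and strand use were not given in the sources used here. Antisense and overlapping genes may not have been told apart. Lines that name no gene were left out. CPM used the total of named genes. TPM used GENCODE M21 (mm10) merged exon lengths, matched by symbol or synonym for 90.1% of genes with a count. Log2 values used a pseudocount of 0.5.

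Variation between libraries was tested in edgeR 4.0.16 by how well a negative binomial model with an intercept alone fitted each gene (TMM, trended dispersion, genes with at least 10 counts in 1 library, Benjamini-Hochberg adjustment over all genes). Alternatives were a variance test in limma 3.58.1, size factors from DESeq2 1.42.0, a common dispersion, minimums of 1 and 50 counts, and left-out replicates. Contrasts within a library used an exact sign-flip permutation test. Both tests across genes were tested on simulated data. The software was R 4.3.3 and Python 3.11.15 with numpy 2.4.6 and pandas 2.3.3.

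The members and the 19 gene lists were chosen with earlier results of these data known. Named were all members, the listed paralogs, Slc17a6 and Slc17a7, genes of a list that were called, the 3 nearest profiles to the widest member, and the highest and lowest gene of the regulator, effector, striatal and olfactory bulb lists. The same genes of the other cell-type lists are not repeated. Some genes that this rule names, and 1 planned pair, are not reported here. Eomes, Tbx21 and others are on more than 1 list. Intervals and limits cover counting error only, and PCR duplicates among the reads are not accounted for. Replicates are separate samples of pooled mice by the labels, and p-values measure the spread between these samples.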

Additional observations from a re-analysis of the deposited data

How the results depend on the processing

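No paired analysis was possible because all 3 libraries form 1 group. The count of varying members stayed at 0 under all 9 alternatives. Without replicate 1, Rorb had an unadjusted p of 0.0289 in edgeR (adjusted p = 0.671), and without replicate 2 Cux2 had 0.0160 (adjusted p = 0.553). Over all genes the count of 36 became 1097 with a common dispersion, 12 in limma (11 of them shared), 18 at an adjusted p of 0.01 and 16 to 21 when 1 replicate was left out.

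In CPM, which does not account for length, ratios turned for Fezf2 over Tbr1 (-0.23), Tbr1 over Tle4 (-0.011), Bcl11b over Rorb (-0.27), Rorb over Cux1 (-0.70), Cux2 over Foxp2 (-0.20) and Bcl11b over Bcl11a (-0.58). With the longest transcript they turned for Bcl11b over Rorb (-0.078), Rorb over Cux1 (-0.23), Cux2 over Foxp2 (-0.57) and Bcl11b over Bcl11a (-1.01). With 1 replicate left out, Tbr1 over Tle4 ranged from -0.057 to 0.17, Rorb over Cux1 from -0.027 to 0.25 and Bcl11b over Bcl11a from -0.13 to 0.25. The other contrasts kept their direction, but CPM moved Cux1 over Cux2 to 2.21, Fezf2 over Bcl11b to 0.88 and Tle4 over Tle1 to 2.88, and the longest transcript moved Sox5 over Cux2 to 1.04 and Tle4 over Tle1 to 2.82, each by over 1.5 times.

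The upper-layer group minus the layer 5 group was -0.43 in CPM, -1.62 with the longest transcript, -1.54 as a sum, -1.99 without Cux1 and -2.96 without Bcl11b and Foxp2. Without Bcl11b the layer 5 group is Fezf2 alone, and no setting left Fezf2 out. Upper minus deep layers was -0.18, -1.07, -1.77 and -1.35 in CPM, with the longest transcript, as a sum and without Bcl11b and Foxp2. Layer 5 minus deep layers was 0.25, 0.55, -0.23 and 1.61 in the same order. In CPM, the difference of upper minus deep layers was within its SD of 0.23. These shifts follow from the lengths and members entering each value. Of 54 alternative values of member levels in CPM, 4 moved by more than 1 SD, each when totals left out the 10 highest genes (Tbr1 209, Cux1 191, Tle4 211 and Sox5 70.8 CPM). At 5 CPM in every library, 2 of 8 microglial and 1 of 6 endothelial genes were detected.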

Other observations

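Of the listed genes of other cells, the thalamic transcription factor gene Tcf7l2 and the olfactory bulb gene Cdhr1 were called by the edgeR goodness of fit. These were 1 of 6 thalamic and 1 of 5 olfactory bulb genes tested, against 0.244% of all genes, and the other cell-type lists had 0 called. At an unadjusted p under 0.05 there were 4 of 5 olfactory bulb, 4 of 14 striatal and 3 of 13 GABAergic genes. Each remaining list of other cells had 0 or 1, against 7.22% of all genes. Tcf7l2 had 7.86, 32.4 and 20.6 CPM in replicates 1, 2 and 3 (edgeR adjusted p = 0.0429). Its call was lost with a common dispersion (0.0799), with no count minimum (0.0592), in limma (0.251), and without replicate 1 (0.941) or 2 (0.478). Cdhr1 kept its call under each alternative except without replicate 3 (edgeR adjusted p = 1.0). The neuronal differentiation gene Sox11 had 18.7, 25.7 and 43.6 CPM, with an unadjusted p of 0.00624 and an adjusted p of 0.376 in edgeR.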
